A study of Mus musculus with 21 samples.

Results

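The subcortical maternal complex genes are 8 genes, Nlrp5, Ooep, Tle6, Khdc3, Padi6, Nlrp2, Nlrp4f and Zbed3, chosen by their membership of the complex or their association with it. Transcripts merged from the long reads of all stages were assigned to them by exon overlap on the same strand with the GENCODE annotation, and the gene value was the summed TPM (each transcript's length-scaled share of a library, with all shares summing to the same total) of those transcripts. All 8 genes had a transcript, among 14885 genes and loci, and together they held 18 of 22612 merged transcripts. TPM is scaled by transcript length, so levels of different genes can be set side by side, with the limit that some of these transcripts cover only a piece of the gene.

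The complex is a protein assembly laid down in the growing oocyte beneath the plasma membrane and kept in the outer region of the cleaving embryo. It is known from maternal-effect phenotypes: females that lack Nlrp5, Ooep, Tle6 or Padi6 produce embryos that stop in early cleavage. NLRP5, OOEP and TLE6 form its core, KHDC3 and further NLRP proteins bind to it, PADI6 is needed for the cytoplasmic lattices that are linked to it, and ZBED3 has been described as a partner of the core.

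The study followed gametes and preimplantation embryos from C57BL/6J females and DBA/2J males (the protocol text names DBA/2N) with long reads and short reads. Sperm came from the epididymis of the males. Females of 3 to 5 weeks were superovulated with PMSG and hCG, MII oocytes were lysed at 20 h after hCG, and embryos of the cross were taken from the oviduct at 20 h and cultured in KSOM to the 1-cell (24 to 26 h), 2-cell (46 to 48 h), 4-cell (54 to 58 h), 8-cell (68 to 70 h) and blastocyst (94 to 96 h) stage. Each of the 7 stages had 2 short-read libraries made from pools of many oocytes or embryos and 1 long-read pool, with cDNA amplified by Smart-seq2, a full-length method that primes on poly(A) tails. No source says that the pools shared no mothers, so the spread covers differences between these pools only, and in such bulk libraries fewer transcripts per cell and fewer cells cannot be told apart.

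The stage labels were checked with marker genes. The summed TPM of 7 sperm markers was 17339 and 21188 in sperm and at most 17.1 in any other library, and that of 7 blastocyst markers was 10362 and 37533 in blastocyst and at most 894 elsewhere. Of 10 cumulus and granulosa markers only Amhr2 had a transcript, at 0.206 TPM and listed at 0 in the 2 oocyte libraries and at 99.2 and 107 TPM in 4-cell, and the others could not be read. The 2-cell libraries stood apart from each other: Zscan4c, a gene of the 2-cell stage, was at 2.25 TPM in replicate 1 and 131 TPM in replicate 2, the median SD of a gene over the 2 libraries was 1.03 on the log2 scale against 0.20 to 0.64 in the other 5 stages tested, and 7 of the 8 complex genes differed between them by 3.81-fold to 18.3-fold. The summed TPM of 6 markers of the 2-cell stage, Zscan4c among them, was 39.9 in 2-cell replicate 1 and 454 in replicate 2. In replicate 1 the sum lay below 1-cell replicate 1 (44.98), 4-cell (193 and 154), 8-cell (137 and 84.5) and blastocyst (177 and 47.5). It lay above 1-cell replicate 2 (28.8), oocyte (33.0 and 4.98) and sperm (12.9 and 17.0). These markers therefore did not bear out the label of 2-cell replicate 1. Read depth cannot be recovered from TPM. The paper's supplement lists total sequences per library, with more for its 2-cell replicate 2 than for its 2-cell replicate 1. The part of depth or of the exact age of the 2-cell pools in these differences was not tested.

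Sequence around the annotated start of 3 of the genes is shown. Ooep and Zbed3 were chosen because nearly all of their long-read transcripts began within 300 bases of a RefSeq start, and Padi6 because only 1 of its 6 did. The Ooep transcripts of the oocyte and 1-cell pools began 214 bases before the RefSeq start, so the marked letters of Ooep lie after their first base. These are RefSeq windows on GRCm38, the assembly of mm10, running from 250 bases before to 50 bases after a start, and capitals mark the letters CANNTG, the E-box of bHLH factors such as FIGLA, TAATTG, an element of NOBOX, and the further homeobox or TATA letters TAATTA and also TAATCC and also TATAAA, on either strand, with overlaps between matches allowed.
Ooep, chr9:78378539-78378838, minus strand: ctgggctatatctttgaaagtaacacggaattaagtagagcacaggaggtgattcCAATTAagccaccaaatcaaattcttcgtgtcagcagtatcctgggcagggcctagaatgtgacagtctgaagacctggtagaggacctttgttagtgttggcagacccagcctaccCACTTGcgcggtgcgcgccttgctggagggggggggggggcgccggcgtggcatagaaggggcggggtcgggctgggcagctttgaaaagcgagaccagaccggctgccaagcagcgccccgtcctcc
Padi6, chr4:140742594-140742893, minus strand: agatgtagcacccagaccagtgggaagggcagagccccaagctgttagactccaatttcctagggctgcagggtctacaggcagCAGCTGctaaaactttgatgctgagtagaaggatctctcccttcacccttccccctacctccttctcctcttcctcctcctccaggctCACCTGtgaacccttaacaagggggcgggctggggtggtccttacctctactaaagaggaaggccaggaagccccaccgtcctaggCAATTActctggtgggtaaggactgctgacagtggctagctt
Zbed3, chr13:95323355-95323654, plus strand: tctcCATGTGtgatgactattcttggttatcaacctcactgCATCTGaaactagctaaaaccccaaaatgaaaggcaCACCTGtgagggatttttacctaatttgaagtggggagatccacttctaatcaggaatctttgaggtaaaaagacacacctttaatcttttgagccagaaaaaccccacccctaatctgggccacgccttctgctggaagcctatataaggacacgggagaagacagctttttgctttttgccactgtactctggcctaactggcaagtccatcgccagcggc
In the window with the most long-read starts of each gene, CANNTG was present in 7 of 8 genes, against 72.3% of 32851 windows of this length. TAATTG was present in Ooep and Padi6, 2 of 8, against 8.0% of windows, TAATTA in 1 of 8 against 5.29%, TAATCC in 1 of 8 against 7.06%, and TATAAA in 0 of 8 against 13.6%. Only these exact letters were searched, so near matches such as the tatataag of the Zbed3 window shown are not counted. CCAAT, searched on both strands and not marked in capitals, was present in 6 of 8, Nlrp5, Ooep, Tle6, Khdc3, Padi6 and Nlrp2, against 37.4% of windows, and its match in Ooep overlaps that of TAATTG. Matches of letters this short are a description of the windows and no evidence of binding.

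Of the 61 long-read transcripts of the 8 genes, 14 came from the oocyte pool, 19 from 1-cell, 8 from 2-cell, 5 from 4-cell, 8 from 8-cell, 7 from blastocyst and 0 from sperm. The pools held from 7034 (oocyte) to 8831 (8-cell) transcripts in all. These are counts of distinct collapsed transcripts, pieces and end variants among them, and not of reads. Of these 61, 48 began within 300 bases of a RefSeq start. The genes with long reads late in the series were few: Khdc3 had 6 transcripts in 8-cell and 6 in blastocyst, Padi6 had 2 in 8-cell, Ooep had 1 in blastocyst, and Nlrp5, Tle6, Nlrp2, Nlrp4f and Zbed3 had none in either stage.

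**Figure D1:**
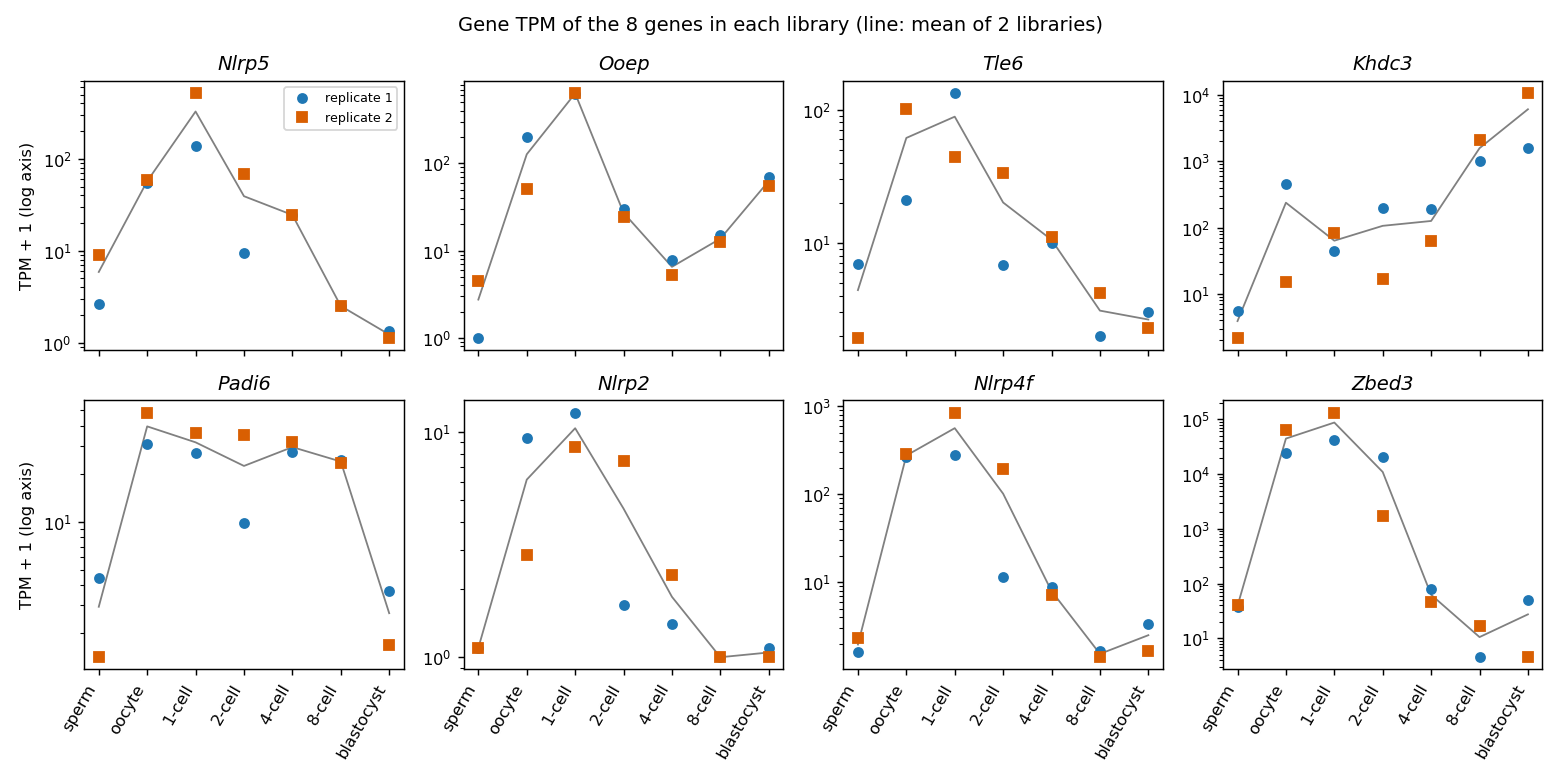
Gene TPM of the 8 genes in each of the 14 short-read libraries, plotted as TPM + 1 on a log axis by stage, with circles for replicate 1, squares for replicate 2 and a line through the stage means. By stage mean Khdc3 is highest in blastocyst, where replicate 1 lies below 8-cell replicate 2. Ooep is lowest among embryos at 4-cell, and Zbed3 is above the other 7 genes in all 6 libraries from oocyte to 2-cell.

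Nlrp5 (ENSMUSG00000015721.18, chr7:23385889-23441922, plus strand) encodes the NLR protein of the core, also called MATER. Its TPM was 54.2 and 58.0 in oocyte, 137 and 515 in 1-cell, 8.56 and 67.9 in 2-cell, 23.4 and 23.7 in 4-cell, 1.51 and 1.51 in 8-cell, 0.329 and 0.130 in blastocyst, and 1.66 and 8.10 in sperm. Both 1-cell libraries lay above all others, and both blastocyst libraries below. No long read spanned the gene: the merged models were a fragment of 8 exons and 590 bases that began at the annotated start and one of 9 exons and 2030 bases that covered the 3′ part, so the summed TPM counts an mRNA that carries both pieces in both.

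The 2 pieces of Nlrp5 differed in their course. The 5′ piece was at 35.5 and 51.1 TPM in oocyte, 92.1 and 413 in 1-cell, 8.46 and 6.42 in 4-cell, and listed at 0 in both 8-cell libraries. The 3′ piece was at 18.7 and 6.91 TPM in oocyte, 44.7 and 102 in 1-cell, 14.9 and 17.2 in 4-cell, and 1.51 and 1.51 in 8-cell. From oocyte to 4-cell the balance of the 5′ piece against the 3′ piece fell by 2.83 on the log2 scale (SE 0.63, limma with Benjamini-Hochberg over all transcripts tested, adjusted p = 0.00915). It did not pass without oocyte replicate 2 (-1.91, adjusted p = 0.0548) or 4-cell replicate 2 (-2.55, adjusted p = 0.0726). The 5′ piece was above the 3′ piece in all 4 oocyte and 1-cell libraries and below it in all 6 libraries from 2-cell to 8-cell.

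Ooep (ENSMUSG00000032346.7, chr9:78376109-78378725, minus strand) encodes an RNA-binding protein of the core with a KH-like domain, also called FLOPED. Its TPM was 202 and 50.5 in oocyte, 630 and 635 in 1-cell, 28.6 and 23.6 in 2-cell, 6.78 and 4.25 in 4-cell, 13.96 and 11.5 in 8-cell, 69.1 and 54.4 in blastocyst, and listed at 0 and 3.49 in sperm. The level was lowest at 4-cell among the embryos, and both blastocyst libraries lay above both 8-cell and both 4-cell libraries. From 4-cell to 8-cell the log2 change was 1.10 (SE 0.74, adjusted p = 0.536) and from 8-cell to blastocyst 2.19 (SE 0.74, adjusted p = 0.17), neither past the limma threshold.

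The merged Ooep model was a 4-exon isoform of 743 bases, found as such in the 1-cell pool, with an intron of 176 bases inside annotated exon 1, at chr9:78378530-78378705 in the 5′ untranslated region, that opened with GT and closed with AG. The junction is shown because this spliced form stood for the gene in the merged TPM, with capitals for the bases after the intron.
Ooep, 15 bases on each side: cagtctgaagacctgTATGGCATCCCACAC
The 3-exon chain of the annotation was seen in the oocyte, 1-cell and blastocyst pools. In TPM over the transcripts of the 1-cell stage alone, where both were separate, the annotated chain was at 330 and 315 and the new 4-exon form at 0 and 15.8 in the 2 libraries. The gene level by that measure was 330 and 330 in 1-cell and 55.1 and 46.4 in blastocyst, below the merged values given above.

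Tle6 (ENSMUSG00000034758.12, chr10:81590904-81601073, minus strand) encodes a Groucho-family protein that joins the core. Its TPM was 19.9 and 100.4 in oocyte, 131 and 43.3 in 1-cell, 5.75 and 32.3 in 2-cell, 9.01 and 10.0 in 4-cell, 1.00 and 3.19 in 8-cell, 2.00 and 1.31 in blastocyst, and 5.89 and 0.934 in sperm. The oocyte and 1-cell libraries overlapped, as did 8-cell and blastocyst. One merged transcript of 14 exons carried the annotated intron chain.

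Nlrp2 and Nlrp4f encode oocyte NLR proteins related to NLRP5. Nlrp2 (ENSMUSG00000035177.8, chr7:5298547-5351035, minus strand) was the lowest of the 8 genes, at 8.44 and 1.84 TPM in oocyte, 11.2 and 7.59 in 1-cell, 0.712 and 6.42 in 2-cell, 0.399 and 1.31 in 4-cell, listed at 0 in both 8-cell libraries and at 0.0993 and 0 in blastocyst. Only 1 library, 1-cell replicate 1, was above 10 TPM. Its merged model held 5 exons and 743 bases at the 5′ end of an annotated gene of 12 exons, and ended in an exon outside the annotation.

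Nlrp4f (ENSMUSG00000032999.10, chr13:65177111-65205977, minus strand) was at 266 and 284 TPM in oocyte, 281 and 847 in 1-cell, 10.4 and 191 in 2-cell, 7.81 and 6.13 in 4-cell, 0.672 and 0.414 in 8-cell, and 2.35 and 0.677 in blastocyst. The 2-cell libraries differed by 18.3-fold, the widest gap between replicates of the gene. Over the merged transcripts its 11-exon transcript of 3653 bases held 79.4% and 74.4% of the gene's TPM in oocyte and 85.6% and 74.2% in 1-cell. A 4-exon 5′ fragment of 485 bases held most of the rest there. The 1-cell pool held no 11-exon chain. In TPM over the transcripts of the 1-cell stage alone, the 4-exon fragment was at 211 and 787 and a 9-exon form at 170 and 416. That 9-exon form was listed at 0 in both 1-cell libraries over the merged transcripts, so the 1-cell shares depended on the transcripts used.

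Zbed3 (ENSMUSG00000041995.8, chr13:95323612-95337841, plus strand) encodes a BED-type zinc finger protein that also binds axin. Its TPM was 24172 and 64680 in oocyte, 42130 and 132356 in 1-cell, 20080 and 1745 in 2-cell, 78.0 and 44.9 in 4-cell, 3.53 and 15.6 in 8-cell, 49.3 and 3.52 in blastocyst, and 36.0 and 40.3 in sperm. It ranked 1 among all genes in both oocyte libraries, both 1-cell libraries and 2-cell replicate 1, and 45 in 2-cell replicate 2. It took 2.42% and 6.47% of all TPM in oocyte and 4.21% and 13.2% in 1-cell, and TPM of all transcripts sums to the same total in every library. The transcript with the annotated intron chain held between 99.985% and 100% of this level in every library.

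The long-read ends of Zbed3 were spread. The 14 long-read transcripts with the annotated chain ended at 10 positions, of which chr13:95337308, 533 bases before the annotated end, was used in the oocyte, 1-cell and 2-cell pools and chr13:95337841, the annotated end, in the oocyte, 1-cell and 4-cell pools. The merged annotation kept 1 of these as its model, and the share of each end in the short reads was therefore read only from the TPM of the own stage. In oocyte the transcript with the annotated chain that ended at chr13:95337308 was listed at 0 in both libraries. The one ending at chr13:95337841 had 13406 and 27871 TPM, and one ending at chr13:95337419 had 4154 and 32742. An oocyte transcript without the annotated intron also ended at chr13:95337308, with 2.05 and 16696.5 TPM, so use of that end in oocyte cannot be read as 0. In 1-cell the transcript ending at chr13:95337308 had 17911 and 58300 TPM, and the one ending at chr13:95337841 had 6022 and 34930. In 2-cell replicate 1 the transcript with the annotated chain ending at chr13:95337308 had 13597 TPM and in replicate 2 it had 58.9.

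Padi6 (ENSMUSG00000040935.12, chr4:140727355-140742643, minus strand) encodes a member of the peptidylarginine deiminase family and is required for the cytoplasmic lattices of the oocyte. Its gene TPM was 29.9 and 47.3 in oocyte, 26.0 and 35.0 in 1-cell, 8.89 and 33.9 in 2-cell, 26.3 and 30.5 in 4-cell and 23.2 and 22.5 in 8-cell, and 2.67 and 0.680 in blastocyst. Except for 2-cell replicate 1, every library from oocyte to 8-cell lay between 22.5 and 47.3 TPM, while the TPM was divided differently between its 2 merged transcripts.

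Of Padi6, the 16-exon form of 2333 bases with the annotated chain held 100% of the gene's TPM in both oocyte libraries, and the 8-exon form of 1347 bases was listed at 0 in both. The 8-exon form was at 4.90 and 0.235 TPM in 1-cell, 4.39 and 23.8 in 2-cell, 20.1 and 23.5 in 4-cell, 19.4 and 19.8 in 8-cell and 2.44 and 0.680 in blastocyst. Its share was 18.8% and 0.674% in 1-cell, 49.4% and 70.3% in 2-cell, 76.3% and 77.2% in 4-cell, 83.7% and 88.0% in 8-cell and 91.5% and 100% in blastocyst. Every library from 2-cell on had a larger share of the 8-exon form than every oocyte and 1-cell library. The 16-exon form went from 29.9 and 47.3 TPM in oocyte to 6.25 and 6.94 in 4-cell.

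In the limma fit the 8-exon form of Padi6 rose from oocyte to 4-cell by 4.51 on the log2 scale (SE 0.88, adjusted p = 0.00134) and the 16-exon form fell by 2.35 (SE 0.66, adjusted p = 0.0104). The log2 ratio of the 8-exon form to the 16-exon form, each with a pseudocount of 1, rose by 6.86 over the same stages (SE 0.86, adjusted p = 0.000625) and by 3.95 from 1-cell to 2-cell (SE 0.86, adjusted p = 0.0146). The change from oocyte to 4-cell stayed past the threshold in all 20 alternatives of the fit, with a largest adjusted p of 0.00893. The 1-cell to 2-cell change did not without 1-cell replicate 2 (2.48, SE 0.69, adjusted p = 0.0664) or 2-cell replicate 2 (3.35, SE 1.03, adjusted p = 0.0561), when each stage had its own weight in the spread (adjusted p = 0.0609), or in the fit on those 4 libraries alone (adjusted p = 0.154). The fall of the 16-exon form did not pass without oocyte replicate 2 (-2.03, adjusted p = 0.0607), 4-cell replicate 1 (-2.29, adjusted p = 0.0729) or 4-cell replicate 2 (-2.42, adjusted p = 0.0603).

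**Figure D2:**
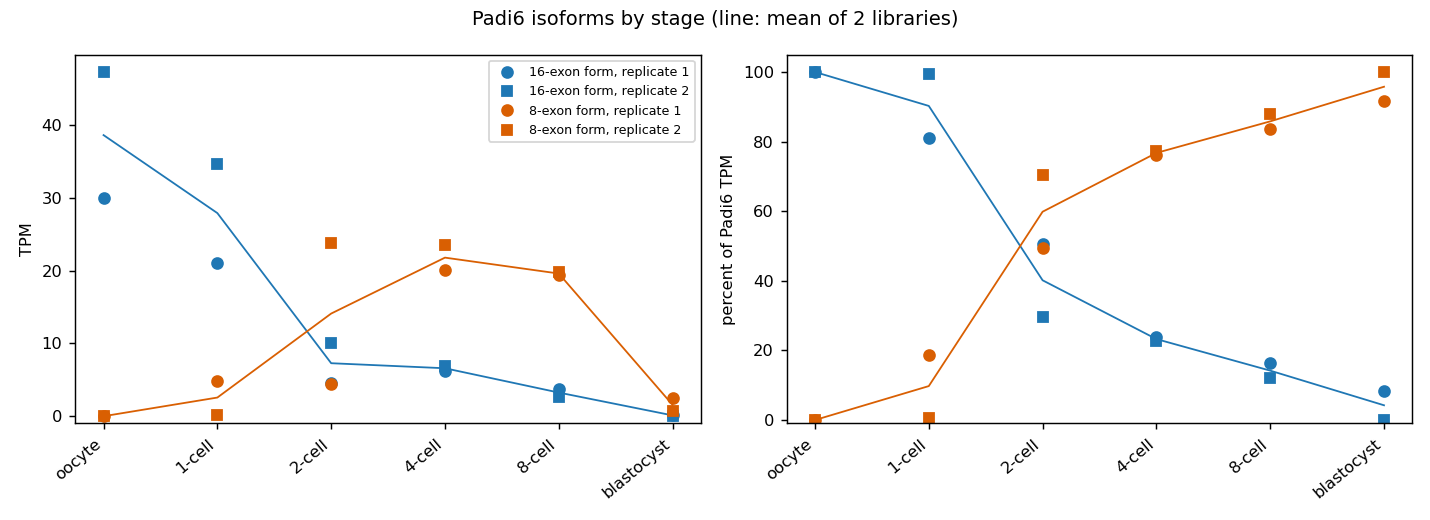
TPM (left) and percent of Padi6 TPM (right) of the 16-exon and the 8-exon form in each library of the oocyte and embryos, with circles for replicate 1, squares for replicate 2 and lines through the stage means. The 8-exon form is at 0 in oocyte and holds 76.3% and 77.2% of the gene in 4-cell.

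The 8-exon form of Padi6 shared its last 7 exons with exons 10 to 16 of the annotated transcript and began with an exon of 115 bases at chr4:140732967-140733081, inside intron 9 of the annotated coding transcript, 9562 bases from its start. GENCODE has a start there: the non-coding transcript Padi6-202 of 3 exons begins at chr4:140733043, its first exon overlaps that of the 8-exon form by 77 bases and has the same inner end, and the long-read start lay 38 bases further upstream. The same chain was present in the 4-cell and 8-cell pools. The annotated junction that this form lacks is shown, with the first bases of exon 10 in capitals. It lies in the coding region, so the 8-exon form holds none of the coding sequence of exons 1 to 9.
Padi6, end of exon 9 and start of exon 10: agcaagtggctccagGACGAGATGGCTTTC
The full 16-exon chain was seen in the 2-cell pool. The long reads of Padi6 from the oocyte and 1-cell pools were 3′ pieces of 6 and 5 exons that are contained in both forms, so at those stages the form was set by the short reads alone.

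The share of the 8-exon form of Padi6 depended on which transcripts the short reads were assigned to. The 8-cell pool also held an 8-exon piece of the annotated chain that began in exon 9, which is folded into the 16-exon form in the merged transcripts. In TPM over the transcripts of the 8-cell stage alone this piece had 16.4 and 14.3 TPM and the 8-exon form with the new start had 2.94 and 5.06, which is 15.2% and 26.2% of the gene, against 83.7% and 88.0% over the merged transcripts. The own-stage transcripts of 2-cell held only the 16-exon chain and those of 4-cell only the 8-exon form, so no share could be read there. The part of incomplete 5′ coverage of the annotated transcript in the merged shares was not tested.

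**Figure D3:**
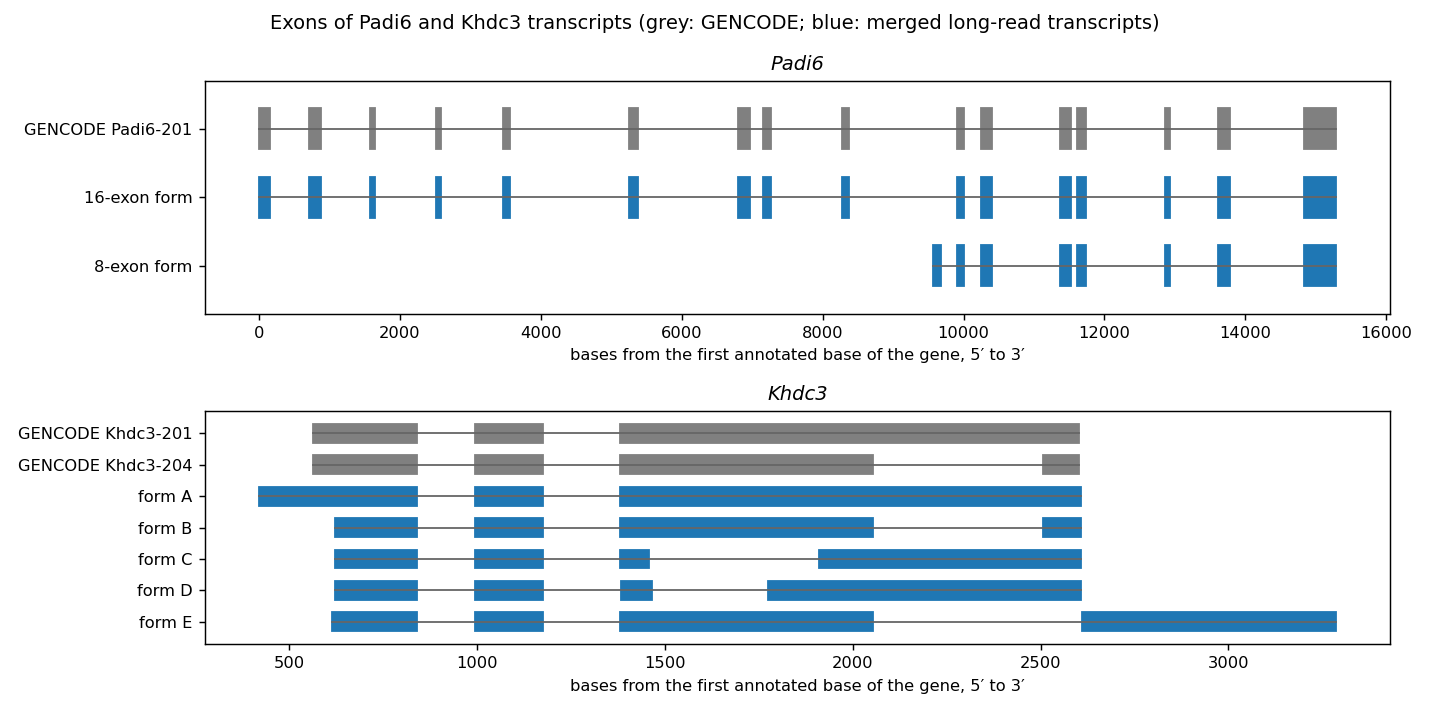
Exons of the Padi6 and Khdc3 transcripts drawn to scale against the distance in bases from the first annotated base of the gene, grey for GENCODE and blue for merged long-read transcripts. The 8-exon form of Padi6 starts in intron 9, and forms C and D of Khdc3 lack part of annotated exon 3.

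Khdc3 (ENSMUSG00000092622.8, chr9:73101836-73104438, plus strand) encodes a KH-domain protein of the complex, also called FILIA, that is known to have a role in genome stability. Its TPM was 458 and 14.2 in oocyte, 43.1 and 81.6 in 1-cell, 194 and 16.01 in 2-cell, 188 and 61.5 in 4-cell, 1023 and 2120 in 8-cell, 1556 and 10578 in blastocyst, and 4.61 and 1.17 in sperm. All 4 libraries of 8-cell and blastocyst lay above all others, and the gene ranked 96 and 8 among all genes in the 2 blastocyst libraries. The oocyte libraries differed by 32.3-fold and the blastocyst libraries by 6.80-fold. The GENCODE gene Gm20509 overlaps Khdc3 on the same strand, so reads of the shared exons are counted here as Khdc3.

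Khdc3 had 5 merged forms, named A to E here. Form A (3 exons) and form B (4 exons) carried annotated coding chains. Forms C and D had introns of 453 and 309 bases inside exon 3 that the annotation does not have, and form E used the donor of form B and ended in an exon beyond the annotated end of Khdc3. Form B held 86.4% and 55.6% of the gene's TPM in oocyte and 21.1% and 22.9% in 4-cell, and form A held 1.89% and 2.60% in oocyte and 46.6% and 50.4% in 4-cell. Both 4-cell libraries were above both oocyte libraries in the share of form A and below them in that of form B.

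For Khdc3, the log2 ratio of form A to the other forms rose from oocyte to 4-cell by 4.41 (SE 0.70, adjusted p = 0.00186) and that of form B fell by 3.25 (SE 0.71, adjusted p = 0.0081), in limma with Benjamini-Hochberg adjustment. In TPM over the transcripts of the 4-cell stage alone form A was at 128 and 42.5 and form B at 18.2 and 8.58. The oocyte pool held only form B, so no share could be read there by that measure. The 1-cell pool held only a piece of 744 bases with the chain of form A, which is also contained in other forms. The fall of form B did not pass without 4-cell replicate 1 (-3.15, SE 0.93, adjusted p = 0.0554). Form C had 17.6% and 1.31% of the gene's TPM in the 2 blastocyst libraries and form D 12.0% and 7.65%.

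**Figure D4:**
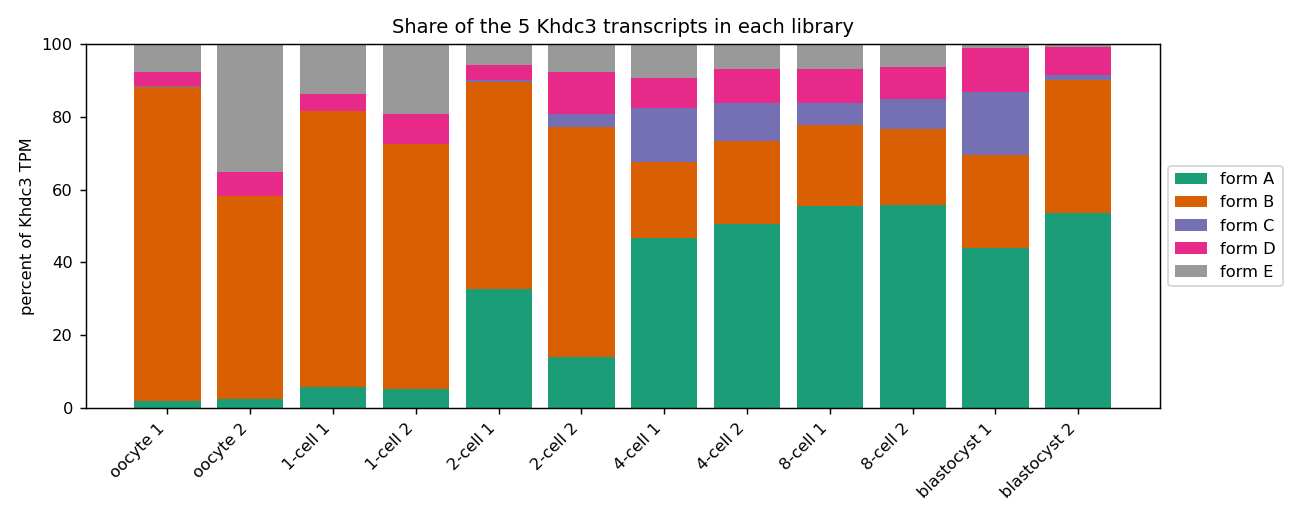
Share of the 5 Khdc3 forms, in percent of the gene's TPM, stacked for each library of the oocyte and embryos. Form B is the largest part in oocyte and 1-cell and form A in 4-cell and 8-cell.

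The junctions of forms B, C and D of Khdc3 are shown with the bases after the intron in capitals, because those of forms C and D lie in repeated sequence.
Form B, intron chr9:73103890-73104342: tcggcttcggtgcagGAATCGGGAAGAACA
Form C, intron chr9:73103293-73103745: cctgctcccgtgaagGTCCGCGAGGCGGCC
Form D, intron chr9:73103302-73103610: gtgaaggtccgcgagGCTGCCACCCGGCCG
The run of bases that is the same at both ends of the intron, so that the junction could sit anywhere within it, was 3 bases in form B, 15 in form C and 16 in form D. The introns of forms B and C opened with GT and that of form D with GC, all closed with AG, and the lengths of all 3 were multiples of 3. Those of forms C and D lie in the coding region of the annotated transcript. That of form B covers coding and untranslated sequence, so its length alone does not settle the reading frame. Whether the long repeats bear on the 2 unannotated introns was not tested.

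The steps between neighbouring stages and 2 longer spans were tested with limma on log2(gene TPM + 1) in 12 libraries (sperm left out), with 13465 genes, a Benjamini-Hochberg adjustment over all of them and a threshold of 0.05. All 8 genes passed the filter of at least 1 TPM in at least 2 libraries. From oocyte to 1-cell limma called none of the 8, where 2.90% of all genes were called in either direction and 1307 had an unadjusted p under 0.05. The log2 changes of the 8 ran from -0.47 to 2.63 with a median of 0.87, against a median of 0.20 over all genes. Ooep, at 2.63 (SE 0.74, adjusted p = 0.0922), and Nlrp5, at 2.23 (SE 0.90, adjusted p = 0.38), had both 1-cell libraries above both oocyte libraries. How many of all genes do so was not counted.

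From 1-cell to 2-cell 3 of the 8 genes fell, where 4.57% of all genes were called lower, and none was called higher, where 25.3% of all genes were (29.9% in either direction). Ooep fell by 4.55 on the log2 scale (SE 0.74, adjusted p = 0.000815), Nlrp5 by 3.38 (SE 0.90, adjusted p = 0.0138) and Nlrp4f by 3.38 (SE 1.07, adjusted p = 0.0297). All 8 log2 changes were below 0, with a median of -2.86 against 0.84 over all genes. Tle6, Nlrp2 and Zbed3 had both 2-cell libraries below both 1-cell libraries without passing, with Zbed3 at -3.66 (SE 1.34, adjusted p = 0.0548). The share of all genes that separate in this way was not counted. The calls of Nlrp5 and Nlrp4f were lost without 2-cell replicate 1, the library with the lower level of both, at log2 changes of -1.95 (adjusted p = 0.0811) and -1.35 (adjusted p = 0.221). They were lost too without 1-cell replicate 2, at -2.42 (adjusted p = 0.146) and -2.59 (adjusted p = 0.208), and Nlrp4f without 1-cell replicate 1, at -4.18 (adjusted p = 0.0501).

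From 2-cell to 4-cell Zbed3 fell by 6.62 (SE 1.34, adjusted p = 0.0282), the 1 gene called among the 8, where 1.58% of all genes were called lower and 2.64% in either direction. That adjusted p was above 0.05 without either 4-cell library (0.224 and 0.242) and without either library of the 1-cell or 8-cell stage (0.0518 to 0.0534). From 4-cell to 8-cell none of the 8 passed limma, where 3.75% of all genes were called and 2138 had an unadjusted p under 0.05. Nlrp5 was at -3.29 (SE 0.90, adjusted p = 0.0663) and Khdc3 at 3.76 (SE 1.51, adjusted p = 0.23), the lowest and the highest change of the 8. In none of the 8 did the groups overlap, and how often that holds over all genes was not counted.

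From 8-cell to blastocyst Padi6 fell by 3.26 (SE 0.75, adjusted p = 0.0433), where 1.07% of all genes were called lower and 1.99% in either direction. This call was lost with the replicate number as a block (adjusted p = 0.0756) and without any 1 library of the oocyte, 1-cell, 4-cell, 8-cell or blastocyst stage, with adjusted p from 0.0542 to 0.381 and log2 changes from -3.83 to -2.70.

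**Figure D5:**
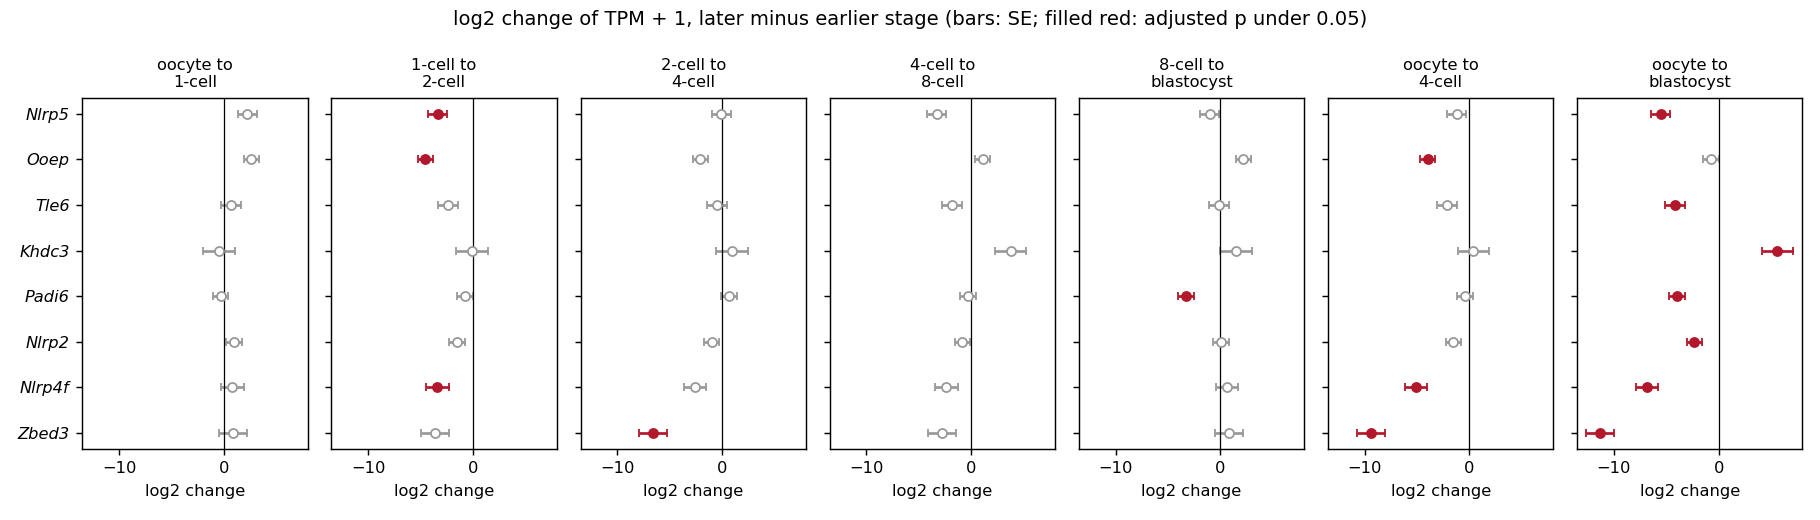
log2 change of TPM + 1 of the 8 genes, later minus earlier stage, for the 7 comparisons, with bars for the SE and filled red points for an adjusted p under 0.05. The changes from oocyte to blastocyst are below 0 for 7 genes and above 0 for Khdc3.

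From oocyte to 4-cell 3 of the 8 genes fell, where 11.6% of all genes were called lower and 54.0% in either direction. The log2 changes were -9.36 for Zbed3 (SE 1.34, adjusted p = 0.000139), -5.12 for Nlrp4f (SE 1.07, adjusted p = 0.00156) and -3.998 for Ooep (SE 0.74, adjusted p = 0.000736), and each of the 3 passed in all 21 alternatives. The median of the 8 was -1.83 against 1.42 over all genes. The changes of Nlrp5, Tle6 and Nlrp2 were -1.22, -2.13 and -1.53 without passing.

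From oocyte to blastocyst 6 of the 8 genes fell, where 16.6% of all genes were called lower, and Khdc3 rose, where 29.8% were called higher (46.4% in either direction). The median of the 8 was -4.05 against 0.75 over all genes. The log2 changes of the 6 were -11.36 for Zbed3 (SE 1.34, adjusted p = 4.24e-05), -6.86 for Nlrp4f (SE 1.07), -5.54 for Nlrp5 (SE 0.90), -4.13 for Tle6 (SE 0.96), -3.96 for Padi6 (SE 0.75) and -2.30 for Nlrp2 (SE 0.74, adjusted p = 0.0212). Those of Zbed3, Nlrp4f, Nlrp5, Tle6 and Padi6 passed in all 21 alternatives. Nlrp2 did not pass without oocyte replicate 1 (-1.44, adjusted p = 0.199), blastocyst replicate 1 (-2.37, adjusted p = 0.0784) or blastocyst replicate 2 (-2.24, adjusted p = 0.0802), or in the limma fit on the 4 libraries of the 2 stages alone (-2.30, SE 0.72, adjusted p = 0.0597).

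Khdc3 rose from oocyte to blastocyst by 5.60 (SE 1.51, adjusted p = 0.0085). It did not pass without oocyte replicate 2, the library at 14.2 TPM, where the log2 change was 3.15 (adjusted p = 0.118), or without blastocyst replicate 2 (4.22, adjusted p = 0.0954), or in the limma fit on the 4 libraries of the 2 stages alone (5.60, SE 1.97, adjusted p = 0.0781). For Ooep the limma change in this comparison was -0.71 (SE 0.74, adjusted p = 0.441). Its blastocyst libraries, at 69.1 and 54.4 TPM, lay between its oocyte libraries at 50.5 and 202.

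The 18 isoforms were tested in the same way among 20250 transcripts. In the order oocyte to 1-cell, the 4 later steps, oocyte to 4-cell and oocyte to blastocyst, limma called 0 of them (2.00% of all transcripts, 1776 with an unadjusted p under 0.05), 3 (28.0%), 1 (2.63%), 0 (3.13%, 3202 unadjusted), 0 (2.11%, 2673 unadjusted), 10 (53.0%) and 13 (43.0%). In the ratio of an isoform to the other isoforms of its gene, with 11874 transcripts tested, the counts were 0 (0.143%, 1042 unadjusted), 7 (16.0%), 0 (0.211%, 2132 unadjusted), 0 (0.472%, 1494 unadjusted), 0 (0.421%, 1279 unadjusted), 10 (29.2%) and 11 (30.9%) in the same order. Only genes with 2 or more merged transcripts entered this ratio, so the isoforms of Ooep, Tle6 and Nlrp2, with 1 each, are not among those counted. A gene with 2 isoforms enters this ratio with both, in opposite directions. The calls of both longer spans included both Zbed3 forms, although the minor form held at most 0.015% of the gene in any library. That ratio moves with the level of the gene.

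Other genes of the same families and of the oocyte were read by lists chosen for their roles. Over all genes, limma called 16.6% lower from oocyte to blastocyst and 4.57% lower from 1-cell to 2-cell. Of 8 further oocyte NLRP genes with a transcript, 7 fell from oocyte to blastocyst, with Nlrp4a at -9.29 (SE 0.86), Nlrp9c at -6.65 (SE 1.11), Nlrp4b at -6.07 (SE 0.84) and Nlrp9a at -5.76 (SE 1.21). From 1-cell to 2-cell 3 of the 8 fell, Nlrp4a, Nlrp4b and Nlrp9b. Of 7 genes associated with the lattices, 4 fell from oocyte to blastocyst, led by Fbxw24 at -8.78 (SE 1.01), an F-box gene of the oocyte. Of 12 other maternal oocyte genes 11 fell over that span, with Bcl2l10 at -12.19 (SE 1.09) and H1foo, the oocyte linker histone, at -11.87 (SE 1.19).

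Of 4 KH-domain relatives of Khdc3 and Ooep, Dppa5a rose from oocyte to blastocyst by 9.54 (SE 1.09, adjusted p = 3.57e-05) and Khdc1b fell by 9.03 (SE 0.90, adjusted p = 1.68e-05) in limma with Benjamini-Hochberg adjustment, and the other two did not pass. Dppa5a, a gene known from pluripotent cells, was at 32.2 and 1.96 TPM in oocyte and 12292 and 4431 in blastocyst. Of the TLE and PADI relatives, none passed from oocyte to blastocyst among 2 and 1 with a transcript. Over all genes 29.8% were called higher over that span, 16.6% lower and 46.4% in either direction. Of 5 oocyte transcription regulators, 4 fell over that span, among them Nobox at -2.89 (SE 0.66) and Lhx8 at -5.28 (SE 0.75).

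The genes most like the mean profile of the 8, by Pearson r of log2(TPM + 1) over the 14 libraries among 12914 genes, were Gm14820 at 0.978, 3110001I22Rik at 0.977, C87977 at 0.976, Ccndbp1 at 0.974 and Rnf185 at 0.972. Gm13084 was nearest to Nlrp5 at 0.967, Gm42947 to Nlrp2 at 0.99, Pla2g4c nearest to Nlrp4f at 0.994, Cpeb1 nearest to Zbed3 at 0.975, Patz1 nearest to Padi6 at 0.948 and Cdk20 nearest to Tle6 at 0.978. Themis3 was nearest to Ooep at 0.891 and Tpm3 to Khdc3 at 0.866. Among the 8 themselves r ran from 0.932 between Nlrp2 and Nlrp4f to -0.459 between Nlrp5 and Khdc3. These libraries share stages and scaling, so r here describes likeness of profile only.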

How the data were processed

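Long reads (1 pool per stage) and short reads (2 libraries per stage) of 7 stages were analysed. Per the methods of the study, long reads were aligned to mm10 by GMAP, redundant reads were collapsed within a stage, and Cuffmerge joined the 7 sets. The deposited TPM came from salmon, run by the authors on each short-read library, once over the joined transcripts and once over those of its own stage. TPM keeps no read depth, so no count test was run. The paper's supplement lists total sequences per library, which are mentioned for the 2-cell libraries only and entered no test.

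Transcripts were assigned to genes by exon overlap on the same strand with GENCODE vM21; the study's own texts give other releases. Tests used limma 3.58.1 in R 4.3.3 (lmFit, contrasts.fit, and eBayes with its trend option) for log2(TPM + 1) of 12 libraries with stage as the only term, so 2 libraries per stage share 1 estimate of the spread. Features at 1 TPM or more in 2 or more libraries were kept (13465 genes, 20250 transcripts), and p-values were adjusted by Benjamini-Hochberg over all of them, with a threshold of 0.05. Fold changes on this scale understate those of low genes. Isoform use was the log2 ratio of a transcript to the other transcripts of its gene, each with a pseudocount of 1 (11874 transcripts). Where a gene is near 0 this ratio moves with the level, so it is read here for Nlrp5, Padi6 and Khdc3 up to 4-cell only. The code was tested on simulated data. Sperm and the long-read pools have values with no test.

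Alternatives were another pseudocount (0.1), no filter or a filter at 5 TPM, quantile normalization, a fit on the 4 libraries compared, the replicate number as a block, a spread weighted by stage, a stricter assignment to genes, each library left out, and TPM of the own stage. Replicate numbers follow the sample titles. File names number the 8-cell replicates in the opposite order, so the block was also run with them exchanged. The members and the gene lists were chosen with earlier results of these data known. Every gene and isoform of the complex is named, and of other lists up to 4 called genes with the largest change, and of likeness the 5 genes nearest to the mean profile and the nearest to each member.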

Additional observations from a re-analysis of the deposited data

How the results depend on the processing

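In no alternative did a called change of a gene or isoform turn its direction. Counts of the 8 genes called moved by more than 1.5 times as follows. From 1-cell to 2-cell (3 called) quantile normalization gave 5, the spread weighted by stage 1 and the fit on the 4 libraries 0. From 2-cell to 4-cell (1 called) no filter, the 4-library fit and the weighted spread each gave 0. From 4-cell to 8-cell (0 called) a pseudocount of 0.1 gave 1, the 4-library fit 3 and the weighted spread 6. From 8-cell to blastocyst (1 called) no filter, the 4-library fit and the replicate block, with either numbering of 8-cell, each gave 0. From oocyte to 4-cell (3 called) quantile normalization gave 7 and the weighted spread 5. With 1 library left out the counts ran from 0 to 1 (oocyte to 1-cell), 1 to 5, 0 to 2, 0 to 2 and 0 to 1 for the later steps, 3 to 5 (oocyte to 4-cell) and 5 to 7 (oocyte to blastocyst).

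For the 18 isoforms, 1-cell to 2-cell (3 called) gave 10 with quantile normalization and 0 in the 4-library fit. From 2-cell to 4-cell (1 called) a pseudocount of 0.1, no filter, the 4-library fit, the weighted spread and the replicate block, with either numbering, gave 0. From 4-cell to 8-cell (0 called) a pseudocount of 0.1 and quantile normalization gave 1, the 4-library fit 7 and the weighted spread 10, and from 8-cell to blastocyst (0 called) the pseudocount, quantile normalization and the weighted spread gave 1. With 1 library left out the ranges were 0 to 1, 1 to 9, 0 to 4, 0 to 3, 0 to 1, 5 to 13 and 10 to 14. For isoform use, 1-cell to 2-cell (7 called) gave 3 with a pseudocount of 0.1, 1 with the weighted spread and 0 in the 4-library fit, 2-cell to 4-cell (0) gave 2 with quantile normalization, 4-cell to 8-cell (0) gave 1 in the 4-library fit and 3 with the weighted spread, and oocyte to blastocyst (11) gave 6 in the 4-library fit. With 1 library left out the ranges were 0 to 0, 1 to 8, 0 to 1, 0 to 1, 0 to 0, 7 to 11 and 7 to 11. The cause of these shifts was not tested.

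Over all genes the 4-library fit called 0 from oocyte to 1-cell, 1-cell to 2-cell, 2-cell to 4-cell and 8-cell to blastocyst (391, 4025, 356 and 268 in the shared fit) and 3300 from 4-cell to 8-cell (505), and the weighted spread called 1873, 2, 4602 and 455 in the last 4 steps of development. From 2-cell to 4-cell a pseudocount of 0.1 called 115, quantile normalization 1430 and the replicate block 136. From 8-cell to blastocyst they called 166, 567 and 175. The replicate numbers are not shown to pair the samples: deviations of same-numbered libraries correlated from -0.494 to 0.442 between stages, above 0.1 in 4 of 15 pairs of stages. TPM holds no read depth, so what depth limits was not read from these values.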
